A study of Homo sapiens with 4 samples.

Results

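The 10 genes described here are 8 trypsin-like serine proteases, PRSS3, PRSS8, PRSS12, PRSS23, ST14, TMPRSS4, HTRA1 and KLK10, and 2 membrane inhibitors of such proteases, SPINT1 and SPINT2. They were chosen by the scaled signals of PRSS23 and PRSS3, which separate the cell lines of the study, so the differences between the lines are given as a description and not tested. All 19 probe sets that the array's annotation assigns to 1 of these genes alone were read, out of 54675 probe sets for 19775 named genes. Of the 19, 8 lay above the detection floor on all 4 arrays, 6 on some of them and 5 on none.

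Trypsin-like serine proteases typically cut proteins after lysine or arginine, and many are made as inactive precursors that another protease activates. HTRA1 is not covered by this account. Some of the proteases are secreted, as are PRSS23, PRSS3, PRSS12, HTRA1 and KLK10. Others sit in or on the plasma membrane, as do ST14, TMPRSS4 and PRSS8. SPINT1 and SPINT2 are membrane-bound inhibitors with Kunitz domains that hold membrane proteases such as matriptase (ST14) and prostasin (PRSS8) in check. In carcinomas this system is known for activating growth factors, receptors and other proteases at the cell surface.

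The cells were CL1-0, an established human lung adenocarcinoma line, and CL1-5, a subline derived from it and known for greater invasiveness. The CL1-0 groups were transduced with a control vector or with a vector for AK4, a mitochondrial adenylate kinase. The CL1-5 groups were transduced with non-silencing shRNA or with AK4 shRNA. All 4 cultures were stably transduced and selected with puromycin, and whether they were pools or clones is not given in the sources used here. Each group was 1 array, so values come without replicate error or p-value and their precision is limited by the number of arrays. Signals are given after each array was scaled to a common trimmed mean. Below a floor of 6.93 a signal was read as dim and set to the floor before ratios were taken. A gene counted as higher or lower where its ratio was at least 2-fold, a log2 ratio of 1 or more in size.

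Between 56.6% and 63.4% of the 54675 probe sets of an array lay above the floor. The AK4 shRNA label was borne out by AK4 itself, whose 4 probe sets had log2 ratios of -0.88 to -1.25 in CL1-5. In CL1-0 they lay between -0.25 and -0.05 on the array labelled AK4 vector, so each direction drawn from that array rests on its label. The labels give alveolar type II cells as the cell type. Of the 11 markers of that type with a probe set, 10 were measured between the control arrays, with 2 at least 2-fold higher in CL1-5 and 1 lower. Over all measured genes 17.1% were higher and 14.2% lower. Of the 10 markers, 3 had a log2 ratio above 0 and 7 below. The median over the 10 was -0.60, against 0.13 over all measured genes. ABCA3 stood at -0.98, NKX2-1 at -0.81 and SFTPB at -0.80. LPCAT1, an enzyme of surfactant lipid synthesis, was higher at a log2 ratio of 1.79, and NAPSA, the protease napsin A, at 1.05. The lysosomal marker LAMP3 was the gene at least 2-fold lower, with signals of 210 and 160 in CL1-0 and below the floor in CL1-5. Surfactant protein C (SFTPC) lay between 24.0 and 30.8 on every array, and SLC34A2 was below the floor on all 4. The ratio of 3' to 5' beta-actin signal, which grows with RNA degradation, was 6.04 and 6.54 on the CL1-0 arrays and 1.34 and 1.61 on the CL1-5 arrays. For GAPDH the same ratio was 1.25 and 1.54 in CL1-0 and 1.04 and 1.07 in CL1-5, a smaller gap. Both ratios were thus higher on the CL1-0 arrays, and their part in the differences between the lines was not tested.

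Of the 10 genes, PRSS23 and PRSS3 had the widest gaps between the lines, and these gaps are why the genes were chosen. The bases before their start sites are therefore shown, from RefSeq's start sites on GRCh38.p14, for 250 bases up to the start. RefSeq's promoter table held 6 of the 10 genes. A pair of start sites was listed for PRSS23, at chr11:86790821-86791070 (+) and chr11:86800292-86800541 (+), and 1 for PRSS3, at chr9:33795311-33795560 (+). Capitals mark matches, on either strand, to 5 motifs: TGANTCA (a loose form of the AP-1 motif, with any base at N), CAGGTG (an E-box), GGGCGG (the GC box), CCAAT and TATAAA.
PRSS23 first start: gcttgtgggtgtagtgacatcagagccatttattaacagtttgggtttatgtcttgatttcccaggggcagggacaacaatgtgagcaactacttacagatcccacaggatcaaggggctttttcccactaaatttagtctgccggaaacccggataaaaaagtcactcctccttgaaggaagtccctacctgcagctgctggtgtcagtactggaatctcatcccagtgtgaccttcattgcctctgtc
PRSS23 second start: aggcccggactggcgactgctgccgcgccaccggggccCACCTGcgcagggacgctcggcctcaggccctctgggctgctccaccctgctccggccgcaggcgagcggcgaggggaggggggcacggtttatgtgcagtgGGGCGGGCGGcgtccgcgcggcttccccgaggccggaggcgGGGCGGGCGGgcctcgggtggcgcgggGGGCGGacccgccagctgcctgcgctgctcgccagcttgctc
PRSS3 start: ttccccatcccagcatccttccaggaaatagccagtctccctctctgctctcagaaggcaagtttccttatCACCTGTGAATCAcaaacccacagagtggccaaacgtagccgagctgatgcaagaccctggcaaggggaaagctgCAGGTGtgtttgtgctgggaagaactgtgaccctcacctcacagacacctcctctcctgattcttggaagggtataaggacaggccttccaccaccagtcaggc

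These 3 windows differ in composition. The second PRSS23 window held 5 GC boxes, which overlap in 4 bases, and 1 E-box, with 79.6% G or C and 32 CpG dinucleotides. The first PRSS23 window held no match to the 5 motifs, at 47.6% G or C and 2 CpG. The PRSS3 window held 1 match to TGANTCA, with the letters TGAATCA, directly after an E-box. Another E-box lay nearer the start, and the window had 54% G or C and 2 CpG. Over all 35116 windows of the table the medians were 58% and 11 CpG. A GC box was present in 42.6% of them, CCAAT in 32.0%, the E-box in 17.5%, TATAAA in 10.7% and TGANTCA in 6.57%. A match describes letters only, and the arrays do not tell which start site was used.

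PRSS23, a secreted serine protease, had 4 probe sets. Scaled signals of the brightest, 202458_at, were 9.18 for the CL1-0 control vector and 7.95 for the CL1-0 array labelled AK4 vector. The CL1-5 arrays gave 1451 for non-silencing shRNA and 1536 for AK4 shRNA. Both CL1-0 signals lay just above the floor and both CL1-5 signals far above it, with a 158-fold ratio between the control arrays, or 7.30 on the log2 scale. Probe set 226279_at was below the floor in CL1-0 and reached 650 and 817 in CL1-5, at least 93.8-fold higher between the controls for this scaling. Probe set 229441_at was likewise below the floor in CL1-0, at 167 and 174 in CL1-5, at least 24.1-fold higher. The fourth probe set, 1565677_at, did not separate the lines, with signals of 9.71 and 7.58 in CL1-0 and 10.2 and 7.52 in CL1-5. The gap between the lines was thus carried by 3 of the 4 PRSS23 probe sets. Over the alternative settings the log2 ratio between the control arrays lay between 4.63 and 8.15.

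PRSS3 encodes mesotrypsin, a trypsin that degrades trypsin inhibitors and is itself hard to inhibit. Its brighter probe set, 213421_x_at, had signals of 7.24 and 8.93 in CL1-0, on the control array and the array labelled AK4 vector, and of 558 and 520 in CL1-5, with non-silencing and AK4 shRNA. The other, 207463_x_at, was below the floor in CL1-0 and stood at 501 and 443 in CL1-5. The control arrays differed 77.1-fold for the former, a log2 ratio of 6.27, and at least 72.3-fold for the latter. The ending of both names marks probes that can bind related transcripts, and trypsinogens are close relatives in sequence, so which of them was read is uncertain. The PRSS2 probe sets 205402_x_at and 216470_x_at followed the same pattern, with 5.78 and 8.75 on the CL1-0 control array against 151 and 85.9 on the CL1-5 non-silencing array. Probe set 205869_at, assigned to PRSS1 and PRSS2 together, was below the floor on all 4 arrays. Without probe sets of such endings PRSS3 has no reading.

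HTRA1, a secreted protease that cleaves matrix proteins, was the other protease past 2-fold between the lines. Its single probe set, 201185_at, read 17.9 in CL1-0 with control vector and 34.8 where the label gives AK4 vector. In CL1-5 it read 81.0 for non-silencing shRNA and 66.8 for AK4 shRNA. Both CL1-5 signals lay above both CL1-0 signals, and the control arrays differed 4.52-fold, a log2 ratio of 2.18. Between the AK4 vector and AK4 shRNA arrays the log2 ratio was 0.94, which is under 2-fold.

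The remaining proteases had low signals. ST14, or matriptase, a transmembrane activator of growth factor precursors, read 14.1 and 16.5 in CL1-0 and 17.8 and 21.0 in CL1-5 with probe set 202005_at. Its log2 ratio between the controls was 0.33, -0.21 after quantile normalization and 1.21 on the values as deposited, so it has no settled direction. Both other ST14 probe sets were below the floor on all 4 arrays. TMPRSS4, a transmembrane protease, was below the floor in CL1-0 and read 12.0 and 11.0 in CL1-5. Its log2 ratio was 0.80 against the floor and 1.58 when the floor was set at the 20th percentile of signals. PRSS12, neurotrypsin, which cleaves agrin at synapses, read 12.6 and 13.7 in CL1-0 and 7.31 and 7.64 in CL1-5 with 213802_at. That log2 ratio of -0.78 was -1.17 after quantile normalization and 0.09 on the values as deposited. KLK10, a secreted kallikrein, read 8.58 and 9.24 in CL1-0 and was below the floor in CL1-5, and its log2 ratio of -0.31 was 0.23 on the values as deposited. PRSS8, prostasin, a membrane-anchored activator of the epithelial sodium channel, was below the floor on all 4 arrays, at 3.70 to 6.66. Its presence was not detectable at this floor. The second probe sets of PRSS12 and KLK10, 205515_at and 215808_at, were also below the floor throughout.

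The inhibitors stood in opposite directions between the lines. SPINT2 had signals of 34.8 and 60.2 in CL1-0, on the control array and the array labelled AK4 vector, and of 8.76 and 7.10 in CL1-5, with non-silencing and AK4 shRNA. It was thus 3.97-fold lower on the CL1-5 control array, a log2 ratio of -1.99, and its only probe set is 210715_s_at. The ratio was -1.12 on the values as deposited and -1.06 for a floor at the 60th percentile, still past 2-fold, and -2.54 after loess. SPINT1 read 9.91 and 9.55 in CL1-0 and 25.7 and 21.0 in CL1-5 with 235546_at, 2.59-fold higher on the CL1-5 control array. The second SPINT1 probe set, 202826_at, was above the floor on 1 array only, the one labelled AK4 vector, at 7.80. The SPINT1 log2 ratio of 1.37 fell below 2-fold under 4 of 8 alternative settings, at 0.86 after quantile normalization, 0.83 after loess, 0.62 for a floor at the 60th percentile and 0.69 for the mean over both probe sets.

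**Figure D1:**
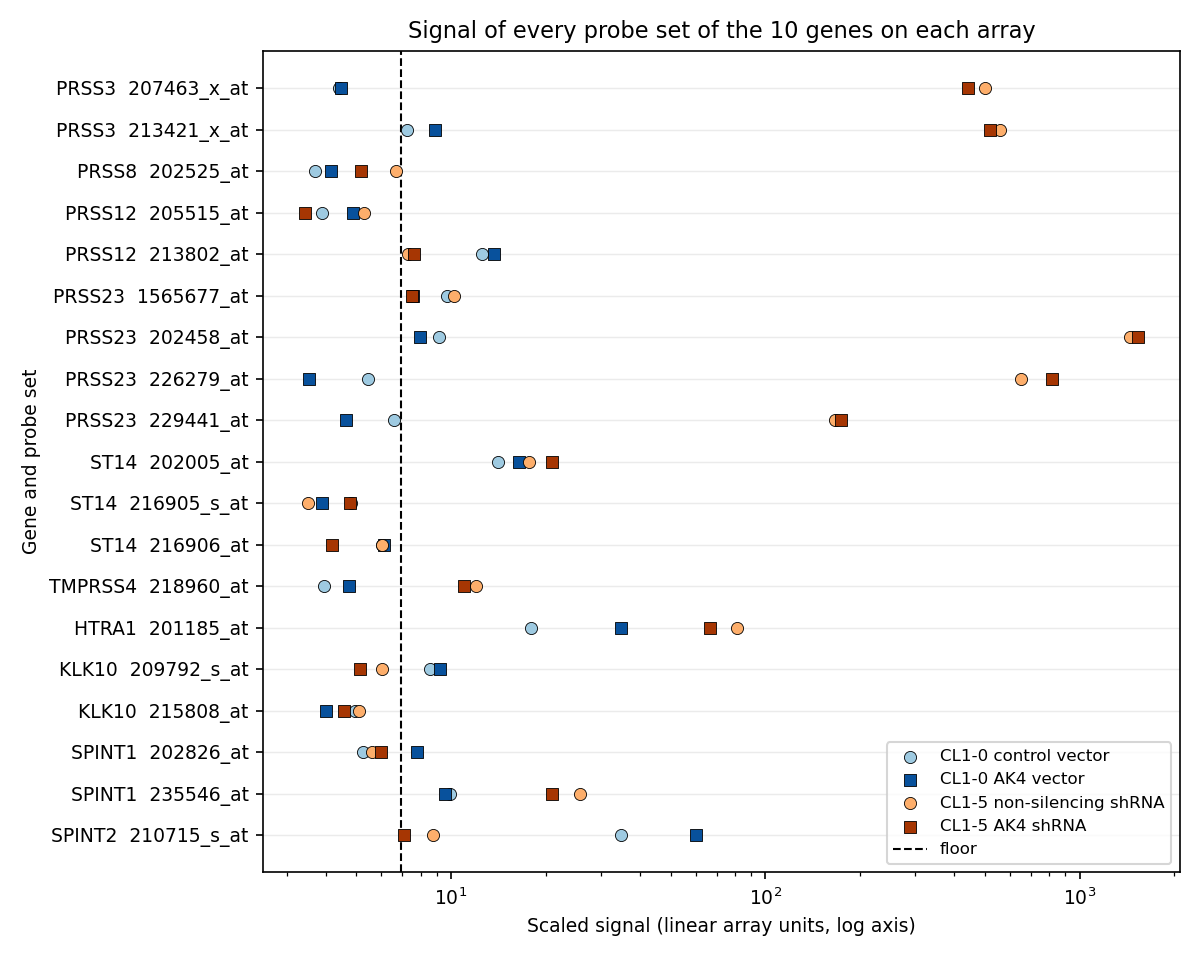
Scaled signal (x axis, linear array units on a log axis) of each of the 19 probe sets (y axis) on the 4 arrays, 1 point per array, with the floor of 6.93 as a dashed line. PRSS23 and PRSS3 reach signals of 167 to 1536 in CL1-5 with all but 1 probe set, SPINT2 lies to the right in CL1-0, and 5 probe sets lie below the floor on every array.

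Between the control arrays 4 of 9 measured genes of the set were thus higher in CL1-5 (PRSS23, PRSS3, HTRA1 and SPINT1) and 1 lower (SPINT2). Over all 15970 measured genes 17.1% were higher and 14.2% lower. Higher genes made up 54.6% of those past 2-fold, 90.4% on the values as deposited and 42.9% after quantile normalization. The rule that chose the genes used this contrast, so the counts describe the set and support nothing. The median log2 ratio was 0.80 over the 9 genes and 0.13 over all measured genes. PRSS23 ranked 5 and PRSS3 ranked 21 from the top among the measured genes. The lines also carried different kinds of vector, which cannot be told apart from the line. In such bulk cultures, fewer expressing cells and less RNA per cell cannot be told apart either. The AK4 shRNA array of CL1-5 over the array labelled AK4 vector gave log2 ratios of 7.59 for PRSS23, 5.86 for PRSS3, 1.13 for SPINT1 and -3.08 for SPINT2.

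Some markers of epithelium and of other cell types passed 2-fold between the control arrays. All that did among the epithelial, endothelial, leukocyte and fibroblast markers were higher in CL1-5. These were 4 of 8 measured epithelial, 3 of 4 endothelial, 1 of 4 leukocyte and 0 of 5 fibroblast markers. Among all measured genes 17.1% were higher and 14.2% lower. The 12 epithelial markers had summed signals of 104 and 105 in CL1-0 and 2104 and 1858 in CL1-5, most of it from the keratins KRT18 (1681 on the CL1-5 control array) and KRT8 (299). E-cadherin (CDH1) and EPCAM were below the floor on 3 arrays, and read 9.81 and 9.46 on the array labelled AK4 vector, and GRHL2 was below it on all 4. The 6 endothelial markers summed to 44.3 and 45.7 in CL1-0 and 116 and 132 in CL1-5, with CDH5 and KDR below the floor on all 4 arrays. The 8 fibroblast markers summed to between 105 and 152 and the 6 leukocyte markers with a probe set to between 37.9 and 61.1, with COL3A1, LUM, PDGFRA, PTPRC and LYZ below the floor throughout. The part of these markers in the differences of the proteases was not tested.

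The comparison in CL1-0 was meant to ask whether AK4 overexpression goes with other levels of these genes. No AK4 probe set read higher on the array labelled AK4 vector, with log2 ratios of -0.25 to -0.05, so the comparison describes that label only. None of the 8 measured genes passed 2-fold, where 3.22% of 14681 measured genes were higher and 1.16% lower. HTRA1 came nearest, at 34.8 on the array labelled AK4 vector against 17.9 on the control array, a 1.94-fold ratio. Its log2 ratio of 0.96 lay between 0.71 and 0.96 over 8 alternatives, and 3.82% of measured genes had a ratio at least as high. SPINT2 followed, at 60.2 against 34.8, a log2 ratio of 0.79, with 6.72% of genes at least as high. The other 6 lay between -0.21, for PRSS23, and 0.30, for PRSS3. Probe sets that share a gene scattered in this comparison with an SD of 0.41, pooled over 6457 genes. It includes real differences between transcripts and is no replicate error. Among the 8 genes HTRA1 and SPINT2 exceeded it, each with 1 probe set. The share of all measured genes beyond this SD was not computed, so exceeding it singles out neither gene. The median log2 ratio was 0.17 over the 8 genes and 0.047 over all measured genes.

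The comparison in CL1-5 asked whether AK4 silencing goes with other levels of the same genes. Again 0 of 8 measured genes passed 2-fold, where 0.0914% of 15321 measured genes were higher and 0.0131% lower. Both inhibitors were at the low end of the set, SPINT2 with a log2 ratio of -0.30 (8.76 to 7.10) and SPINT1 with -0.29 (25.7 to 21.0). HTRA1 stood at -0.28 and ST14 at 0.24. PRSS23 and PRSS3, bright in this line, had ratios of 0.082 and -0.10 with their brightest probe sets. The other PRSS23 probe sets differed in sign and size, at 0.33 for 226279_at, 0.058 for 229441_at and -0.44 for 1565677_at, which lay near the floor. The other PRSS3 probe set stood at -0.18. PRSS12 stood at 0.064 and TMPRSS4 at -0.13. The pooled SD between probe sets was 0.22 here, and SPINT2, SPINT1, HTRA1 and ST14 exceeded it. How many of all measured genes did so was not computed, so this describes the named genes only. Some alternatives brought SPINT2, SPINT1 and ST14 below the SD. SPINT2 was at -0.14 after quantile normalization, and SPINT1 at -0.15 and ST14 at 0.080 with the mean over a gene's probe sets. HTRA1 stayed above it, but HTRA1 has 1 probe set, so that mean could not change its ratio. Of all measured genes, 6.83% had a ratio as low as that of SPINT2. Its signal of 7.10 on the AK4 shRNA array lay next to the floor.

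**Figure D2:**
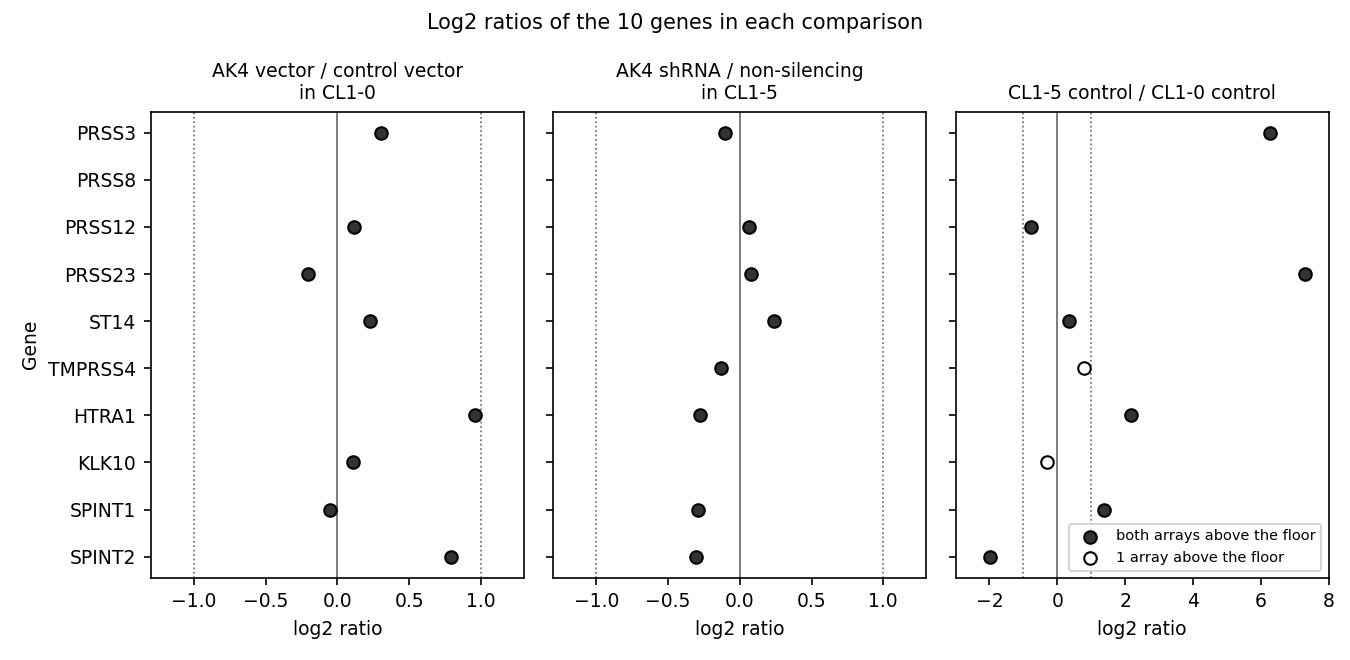
Log2 ratio (x axis) of each gene (y axis) in the 3 comparisons, with dotted lines at 2-fold; the right panel has a wider axis. Filled points had both arrays above the floor and open points 1, and PRSS8 has no point because it was below the floor everywhere. Within the lines every point lies inside the dotted lines, with HTRA1 at 0.96 in CL1-0 nearest to them.

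**Figure D3:**
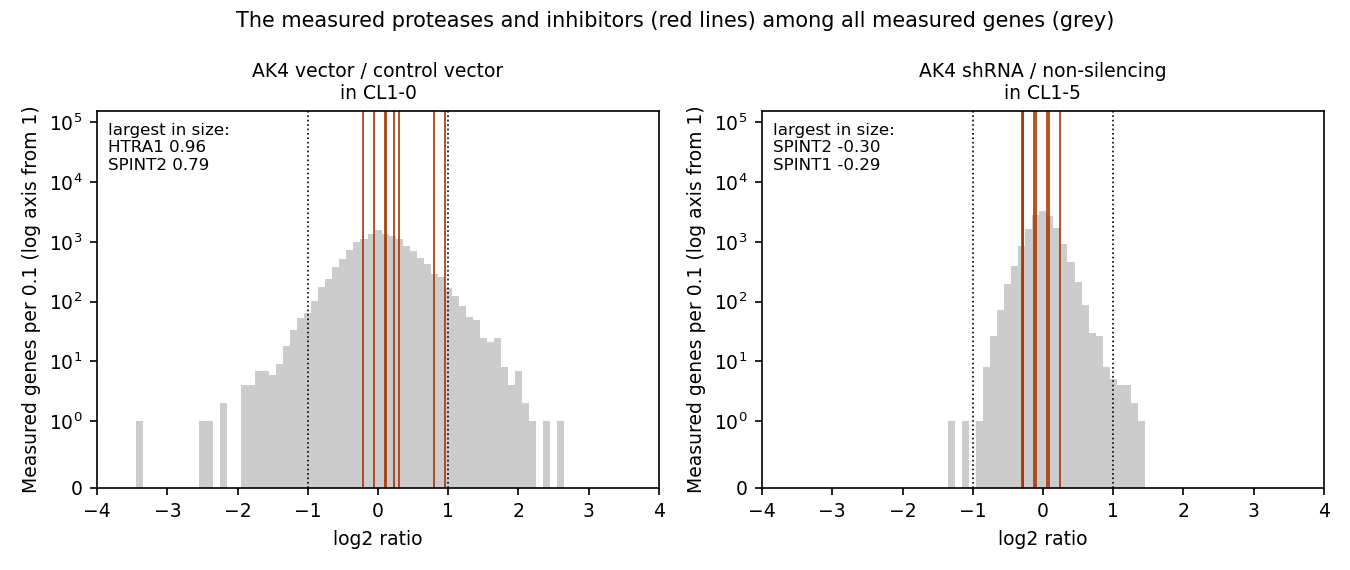
Number of measured genes per 0.1 of log2 ratio (grey bars, y axis linear to 1 and logarithmic above) in the CL1-0 comparison and the CL1-5 comparison, with a red line at the ratio of each of the 8 measured proteases and inhibitors and dotted lines at 2-fold. Most red lines stand within the bulk of the genes, and in CL1-0 HTRA1 and SPINT2 lie towards the right at 0.96 and 0.79.

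HTRA1 and SPINT2 had the same order of signs, above 0 on the array labelled AK4 vector and below 0 with the AK4 shRNA. On the former array the AK4 probe sets themselves lay between -0.25 and -0.05. The order is thus read by the labels, and a link to AK4 was not tested. HTRA1 had 0.96 in CL1-0 and -0.28 in CL1-5, and SPINT2 had 0.79 and -0.30. PRSS3 had the same signs at smaller size, 0.30 and -0.10, and PRSS23 the opposite ones, -0.21 and 0.082. With the mean over a gene's probe sets PRSS3 stood at 0.15 and -0.14 and PRSS23 at -0.14 and 0.0060. ST14 and PRSS12 were above 0 in both lines. SPINT1 was below 0 in both, at -0.053 in CL1-0, but 0.059 there with the mean over its probe sets. Whether the lines differ in these ratios could not be tested with 1 array a group.

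Other genes of the system were read from 4 lists. Of 25 further trypsin-like proteases with a probe set, 22 were measured between the control arrays, 9 higher in CL1-5 and 1 lower, with a median log2 ratio of 0.95. These counts, and those of the lists that follow, stand beside 17.1% higher and 14.2% lower among all measured genes, with a median of 0.13. PRSS21, testisin, a membrane-anchored protease of the testis, was below the floor in CL1-0 and read 279 and 212 in CL1-5. PRSS2, trypsinogen, stood at a log2 ratio of 4.45 with the caution given above. TMPRSS15, enteropeptidase, which activates trypsinogen, read 22.1 and 24.2 in CL1-5 and was below the floor in CL1-0. The lower gene was PRSS16, a thymic serine protease of another structural family, at 43.8 on the CL1-0 control array against 8.11 on that of CL1-5. Of 13 further kallikreins, 3 were higher and 1 lower, with a median of 0.49. KLK1 was at 1.78, KLK3 at 1.23 and KLK13 at 1.15, and KLK8, with signals of 58.4 against 22.7, at -1.36. Within the lines, 0 of 18 proteases and 0 of 11 kallikreins measured in CL1-0 passed 2-fold, where 3.22% of all measured genes were higher and 1.16% lower. In CL1-5 it was 0 of 22 and 0 of 13, where the shares were 0.0914% and 0.0131%.

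Among 27 further serine protease inhibitors with a probe set, 22 were measured between the controls, 5 higher in CL1-5 and 3 lower, with a median log2 ratio of 0.67. Over all measured genes 17.1% were higher and 14.2% lower, so both counts were near the background. TFPI2, a secreted Kunitz-type inhibitor of trypsin and plasmin, had signals of 976 and 560 in CL1-0 and was below the floor in CL1-5, at least 141-fold lower between the controls. The serpins SERPINA1 (an inhibitor of neutrophil elastase), SERPINB9 (of granzyme B) and SERPINB1 (of neutrophil proteases) were below the floor in CL1-0. On the CL1-5 control array they read 124, 105 and 102. In CL1-0 1 of 17 measured inhibitors was higher where the label gives AK4 vector, SERPINI1 (neuroserpin) at 1.84, named here after its value was seen, and 0 were lower. Among all measured genes in CL1-0 3.22% were higher and 1.16% lower. In CL1-5 0 of 19 passed 2-fold, where the shares were 0.0914% and 0.0131%.

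Of 16 substrates and receptors with a probe set, 12 were measured between the controls, 6 higher in CL1-5 and 1 lower, with a median of 0.79, against 17.1%, 14.2% and 0.13 over all measured genes. CDCP1, a transmembrane protein cut by matriptase and plasmin, was below the floor in CL1-0 and read 969 and 907 in CL1-5. The thrombin receptor F2R read 32.1 and 57.0 in CL1-0 and 318 and 402 in CL1-5, a log2 ratio of 3.31 between the controls. Its relative F2RL2 went the other way, at 249 and 251 in CL1-0, below the floor on the CL1-5 control array and at 7.79 with AK4 shRNA. The desmosomal cadherin DSG2 was at 3.24. In CL1-0 1 of 11 was lower where the label gives AK4 vector, the receptor MET at -1.13, named after its value was seen. Among all measured genes there 3.22% were higher and 1.16% lower. In CL1-5 0 of 12 passed 2-fold, where the shares were 0.0914% and 0.0131%. The part of the RNA quality measures given above in these gaps was not tested.

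**Figure D4:**
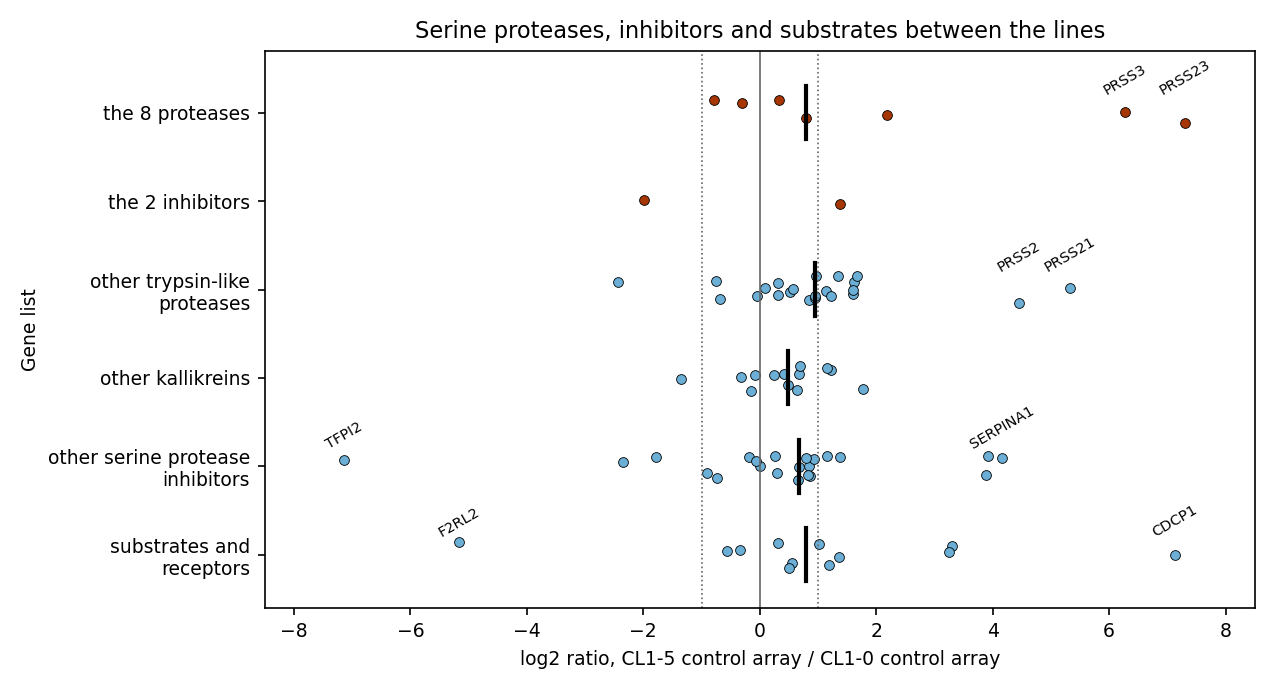
Log2 ratio of the CL1-5 control array over the CL1-0 control array (x axis) for the measured genes of each list (y axis, points spread vertically at random), with the list's median as a bar, none for the 2 inhibitors, and dotted lines at 2-fold. PRSS23 at 7.30 and CDCP1 at 7.13 lie farthest to the right and TFPI2 at -7.14 farthest to the left.

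The genes whose profile over the 4 arrays was most like those of PRSS23 and PRSS3 were found by Euclidean distance between log2 profiles, each centred on its own mean, among 16261 genes above the floor on at least 1 array. For PRSS23 they were CXCL8 (distance 0.33), JAG1 (0.34) and KRT18 (0.39). For PRSS3 they were NT5E (0.15), EVA1A (0.24) and GNA15 (0.27). CXCL8 was below the floor in CL1-0 and read 942 and 1045 in CL1-5. NT5E read 482 and 514 in CL1-5. The 4 points of each profile come from 2 lines only.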

How the data were processed

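Biotin-labelled RNA of 4 cultures was hybridised to Affymetrix arrays, whose probe sets each read a transcript with several oligonucleotides. The authors deposited linear intensities, without detection calls. MAS5 was used, per the submitters' processing notes; its version and role, and how arrays were scaled, are unstated in the sources used here. The deposited medians were 6.07 and 6.23 for CL1-0 and 15.6 and 15.3 for CL1-5. Means after trimming 2% of values from either end were 37.5, 36.8, 68.5 and 69.4.

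Each array was scaled to the mean of the 4 trimmed means, leaving out 62 control probe sets. A floor was set at the 40th percentile of the scaled values. Of all probe sets, 41097 had 1 gene symbol, 1801 several and 11777 none. Symbols were updated through gene identifiers. Where a gene had several probe sets, the one of highest mean log2 level was used, and genes with at least 1 of 2 arrays above the floor were taken as measured. With 1 array a group no test was possible. The procedure was tested on simulated data.

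The genes, the 9 other lists and the naming rule were chosen with earlier results of these data known. Named were all 10 genes, up to 4 genes per list with the largest ratio between the control arrays, and the 3 genes most like PRSS23 and PRSS3. Alternatives changed the scaling, the floor or the probe sets read. Python 3.11.15, pandas 2.3.3, numpy 2.4.6, statsmodels 0.14.6 and matplotlib 3.10.9 were used.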

Additional observations from a re-analysis of the deposited data

Results flagged for a closer look

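Of the 7 genes read above the floor on all 4 arrays, 4 had ratios of opposite sign in the lines, on 1 pair of arrays each. Among all measured genes 56.1% had a ratio above 0 in CL1-0 and 49.7% in CL1-5. The share of all genes with opposite signs was not computed, so the count describes these genes only. The log2 ratios with AK4 vector in CL1-0 and AK4 shRNA in CL1-5 were 0.96 and -0.28 for HTRA1, 0.79 and -0.30 for SPINT2, 0.30 and -0.10 for PRSS3, and -0.21 and 0.082 for PRSS23. With the mean over its probe sets SPINT1 also had opposite signs, at 0.059 and -0.15. The difference between the lines was not tested.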

How the results depend on the processing

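The counts of the set past 2-fold within the lines were 0 in both directions under all 8 alternative settings, which left 2 to 10 of the genes measured in CL1-0 and 5 to 10 in CL1-5. Between the control arrays the count of higher genes lay between 3 and 6. The count of lower genes was 2 after quantile normalization, with PRSS12 added, and 0 without probe sets of the _x_at and _s_at endings, where SPINT2 and PRSS3 have no reading. TMPRSS4 passed 2-fold at 1.23 on the values as deposited, 1.40 with no floor and 1.58 for a floor at the 20th percentile, and ST14 at 1.21 on the values as deposited. On the latter the median of all genes between the lines was 0.83, against 0.13 in the scaled values and -0.06 after quantile normalization. Over all genes between the lines, 7224 were then higher and 771 lower in place of 2736 and 2272, 1763 were higher for a floor at the 60th percentile, and 1364 lower when probe sets of a gene were averaged. With that average 247 genes were higher in CL1-0 in place of 473, and in CL1-5 5 higher and 1 lower in place of 14 and 2; 1 was lower there when names of those endings were left out. The AK4 shRNA array over the array labelled AK4 vector, an alternative chosen after seeing the data, gave 3 higher and 1 lower. Apart from the construction of each alternative, the cause was not tested. No paired analysis was possible because each group holds 1 array. Signals near the floor limit KLK10, PRSS8, PRSS12, TMPRSS4, the CL1-0 side of PRSS23, PRSS3 and SPINT1, and the CL1-5 side of SPINT2.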

Other observations

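Some deposited values were identical on both arrays of a line to the last digit. This held for 4502 of 54675 probe sets, or 8.23%, in CL1-0 and for 3287, or 6.01%, in CL1-5, and for 0 between the control arrays of the lines. Among the 19 probe sets described here, 2 had identical values in CL1-0, 207463_x_at of PRSS3 and 216906_at of ST14, and 0 in CL1-5. The median scaled signal of the identical probe sets was 4.83 for CL1-0 control vector and 5.51 for CL1-5 non-silencing shRNA, both below the floor of 6.93.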
